A study of Zea mays with 4 samples.

Results

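The loci described here are the very long entries of a maize (Zea mays) endosperm RNA-seq study: stretches of 20 kb or more on the nuclear chromosomes with a mean of at least 1 and below 100 FPKM (fragments mapped per kilobase of transcript, scaled to library depth) over the 4 deposited libraries. The rule found 603 such entries among the 29642 in each file. Of the 842 entries of 20000 bp or more, 5 lay on the mitochondrial or plastid genome, and among the nuclear ones 218 had a mean below 1 FPKM and 16 a mean of 100 FPKM or more. The rule used the length and the mean over all 4 libraries, so both are given here as description. It did not use any difference between libraries.

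Starch and storage protein of the kernel are held in the endosperm, which was taken at 15 days after pollination. The libraries were rea1 mutant polysome-bound RNA, wild-type polysome-bound RNA, rea1 mutant total RNA and wild-type total RNA, with 1 library in each group. Polysome-bound RNA was the pellet of an extract spun through a sucrose cushion, and total RNA came from the cleared extract of the same amount of powdered tissue. The labels give neither the gene mutated in rea1, nor the allele, nor the genetic background of the plants, nor whether the same kernels gave both fractions of a genotype. The design text speaks of triplicates, whereas each file holds 1 value per entry, so the differences between genotypes had no replicate check and are given by size.

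In maize, long genes are mostly long through their introns, into which transposable elements have often inserted. Introns are spliced out before the messenger RNA reaches the ribosomes, so a very long locus can give a transcript of ordinary length. Ribosomes that translate one messenger together form a polysome, and RNA that sediments with them is used as a measure of RNA in translation. Yeast has a protein named Rea1, also called midasin, an ATPase needed to make large ribosomal subunits.

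The entries carried no gene names, and the locus length here includes introns and whatever lies between merged genes. The genome build of the files is B73 RefGen_v3, per the submitters' processing notes, and positions are counted from 1. No annotation of that build was used here, so it is not stated which parts of a locus are exons, introns or UTRs, and the tissue label was not checked against marker genes. The 603 entries lay at 570 distinct coordinates that together spanned 19.7 Mb. Their lengths ran from 20012 bp to 160321 bp, with a median of 27542 bp and quartiles of 22616 and 38717 bp. The 16201 shorter nuclear loci in the same range of mean FPKM had a median length of 3939 bp.

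The long loci were low to middling in level and were seen in nearly every library. Of the 603, 600 were above 0 in all 4 libraries and 3 (0.498%) were listed at 0 in at least 1, against 242 (1.49%) of the 16201 shorter loci. The median of the long loci was 6.78 FPKM in rea1 and 5.45 FPKM in wild-type polysomes, and 10.6 FPKM in rea1 and 6.12 FPKM in wild-type total RNA. The quartiles were 2.92 and 16.5 FPKM in rea1 polysome-bound RNA and 2.44 and 12.9 FPKM in wild-type polysome-bound RNA. They were 4.72 and 21.7 FPKM in rea1 total RNA and 2.67 and 13.4 FPKM in wild-type total RNA. Their level was thus highest in rea1 total RNA, while the other libraries lay close to each other. Summed FPKM of the long loci came to 7627 in rea1 and 5996 in wild-type polysomes, and to 10204 in rea1 and 6281 in wild-type total RNA. These sums were 0.901%, 0.669%, 1.17% and 0.643% of all FPKM in those libraries, in the same order. Shorter loci of the same FPKM range also had their highest median in rea1 total RNA, with 6.15, 5.19, 9.29 and 5.64 FPKM in that order.

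**Figure D1:**
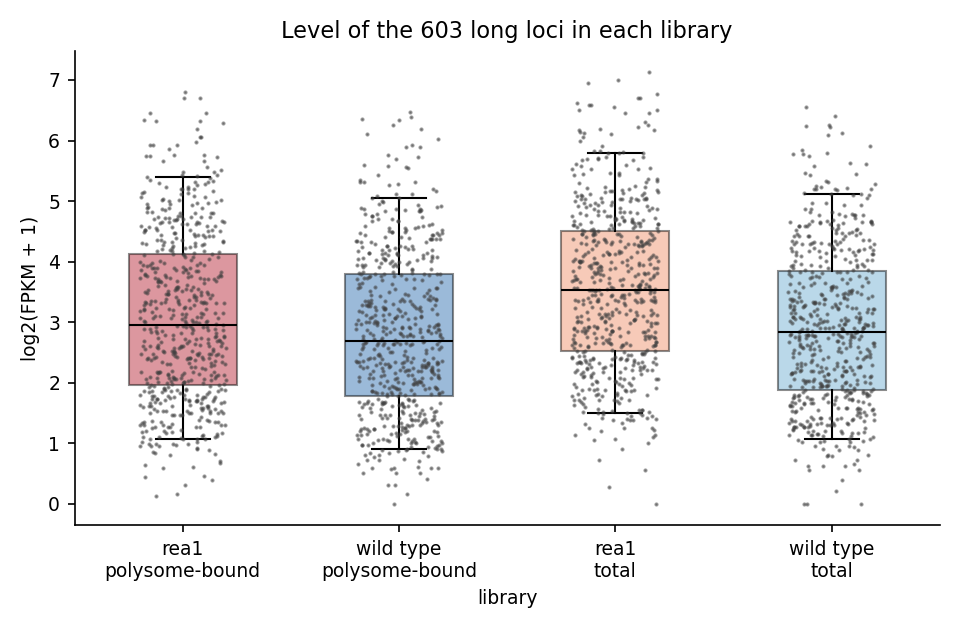
Level of each of the 603 long loci on the log2(FPKM + 1) scale, by library, with 1 point per locus. Boxes show the median and quartiles and whiskers the 5th and 95th percentiles over loci, which is a spread over loci and not an error; rea1 total RNA has the highest median, 10.6 FPKM.

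Read totals are not given in the files. An FPKM value depends on all else in its library, and median-of-ratios scaling moved rea1-to-wild-type ratios (log2) by -0.26 in polysome-bound RNA and by -0.74 in total RNA. It moved that of polysome-bound over total RNA by 0.58 in rea1 and by 0.10 in wild type. Each comparison is therefore also read against the median of the 17682 loci whose mean reached 1 FPKM. Ratios are of log2(FPKM + 1), so those of low loci come out too small.

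The first comparison asks how the RNA on polysomes differed between the genotypes. As deposited, most long loci were slightly higher in rea1, and few were far apart. The polysome-bound log2 ratio of rea1 to wild type had a median of 0.28 over the 603 loci, with quartiles of 0.07 and 0.50, and was above 0 in 486 loci. Over all 17682 loci the median was 0.24, and 12731 were above 0. At least 2-fold higher in rea1 were 15 long loci (2.49%), against 3.96% of all tested loci, and at least 2-fold lower were 3 (0.498%), against 1.34%. Scaled by the median of ratios the counts were 10 higher and 3 lower (1.66% and 0.498%, against 2.09% and 2.43% of all tested loci). With sums made equal after the top 50 loci were set aside they were 7 and 7 (1.16% each, against 1.66% and 3.12%). Above 0 were 355 long loci by the median of ratios and 291 by equal sums, against 9446 and 7925 of all 17682 tested loci. As deposited, the quartiles of the long loci were 0.43 apart, against 0.54 for all tested loci. They were 0.45 apart for loci of 10 to 20 kb in the same FPKM range.

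Named loci were chosen by their ratio among the members above 0 in all libraries, with a mean of at least 5 FPKM and coordinates of their own. The locus at 229475962 to 229506517 of chromosome 3, 30556 bp long, had 23.7 FPKM in rea1 and 4.03 FPKM in wild-type polysome-bound RNA, a log2 ratio of 2.30, the highest under this rule. The locus at 173486913 to 173506976 of chromosome 2 had 35.8 FPKM in rea1 and 9.42 FPKM in wild type (1.82). At the other end, the locus at 223959485 to 223980451 of chromosome 2 had 13.5 FPKM in rea1 and 45.8 FPKM in wild type (-1.69). The locus at 17964695 to 17986258 of chromosome 1 had 4.57 FPKM in rea1 and 12.5 FPKM in wild type (-1.28). The remaining long locus that was at least 2-fold lower, at 140341420 to 140383003 of chromosome 6, had a mean below 5 FPKM, with 1.59 FPKM in rea1 and 5.25 FPKM in wild type; it was named after its values were seen.

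The second comparison makes the same contrast in total RNA, where the long loci, as deposited, stood further above wild type than in polysome-bound RNA. That order of the fractions turned under the other scalings: in polysome-bound and total RNA the medians were 0.077 and 0.0057 by the median of ratios, 0.10 and 0.026 by the trimmed mean, and -0.018 and -0.14 by equal sums without the top 50 loci. As deposited, their log2 ratios of rea1 to wild type had a median of 0.62, with quartiles of 0.32 and 0.97, and were above 0 in 537 of the 603 loci. Of all 17682 tested loci, 14993 were above 0. The median over all tested loci was also 0.62, and 303 of the 603 long loci (50.2%) were above it. At least 2-fold higher in rea1 were 138 long loci (22.9%), against 26.3% of all tested loci, and at least 2-fold lower were 4 (0.663%), against 1.91%. The split depended on the scaling: by the median of ratios 18 long loci were higher and 22 lower (2.99% and 3.65%, against 6.74% and 5.65% of all tested loci). Without the 50 most abundant loci in the sum, 16 were higher and 41 lower (2.65% and 6.80%, against 5.14% and 8.17% of all tested loci). Under each of these scalings a smaller share of the long loci than of all tested loci was at least 2-fold apart.

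The chromosome 3 locus at 229475962 to 229506517 was again furthest above wild type, with 36.1 FPKM in rea1 and 1.87 FPKM in wild-type total RNA (log2 ratio 3.69). The locus at 56558354 to 56611769 of chromosome 7, 53416 bp long, had 22.3 FPKM in rea1 and 2.65 FPKM in wild type (2.68). In polysome-bound RNA it had 11.3 FPKM in rea1 and 3.03 FPKM in wild type. These 2 loci were thus high in both rea1 libraries and low in both wild-type libraries.

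Among the lower loci, the chromosome 2 locus at 109260299 to 109311620, 51322 bp long, had 4.74 FPKM in rea1 and 22.6 FPKM in wild-type total RNA (-2.04). In polysome-bound RNA it was at 13.1 FPKM in rea1 and 22.0 FPKM in wild type, so the genotypes were nearer each other there. The chromosome 2 locus at 223959485 to 223980451 had 9.88 FPKM in rea1 and 42.5 FPKM in wild-type total RNA (-2.00), and was the only long locus at least 2-fold lower in rea1 in both fractions as deposited. The locus at 236148441 to 236187902 of chromosome 1 had 32.0 FPKM in rea1 and 73.5 FPKM in wild-type total RNA (-1.17). The fourth lower entry, at 210248720 to 210274850 of chromosome 2, had 6.41 FPKM in rea1 and 14.1 FPKM in wild type (-1.03); it shares its coordinates with another entry and was named after its values were seen.

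**Figure D2:**
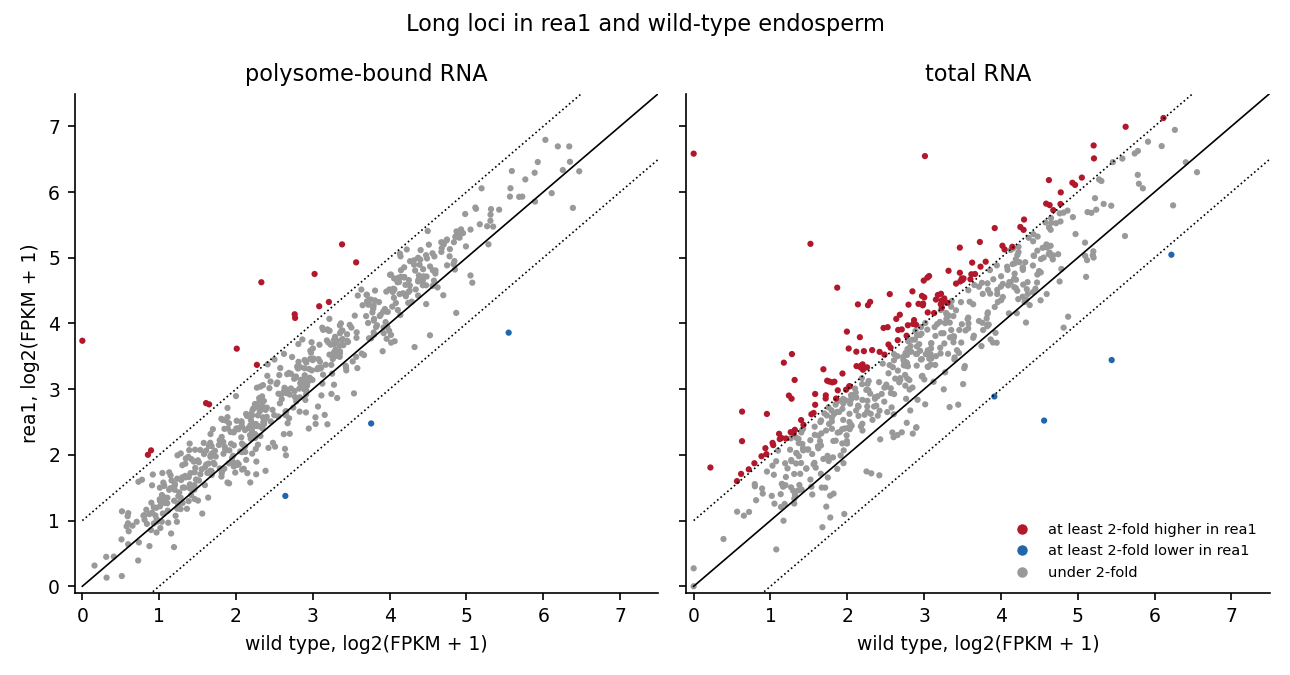
The 603 long loci in rea1 (y axis) against wild type (x axis), log2(FPKM + 1), in polysome-bound RNA (left) and total RNA (right), with the line of equality (solid) and the 2-fold limits (dotted). As deposited, 15 loci lie above and 3 below the limits in polysome-bound RNA, and 138 above and 4 below in total RNA.

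As deposited, long loci at least 2-fold higher in rea1 polysome-bound RNA were mostly so in total RNA as well. Of the 3 that were at least 2-fold lower there, 1 was so in total RNA. The overlap was not recounted under the other scalings. By the median of ratios 18 long loci passed 2-fold upwards in total RNA, against 138 as deposited. Of the 15 long loci at least 2-fold higher in rea1 polysome-bound RNA, 12 also passed 2-fold upwards in total RNA. These 12 were 80.0% of the polysome list and 8.70% of the total list; over all tested loci the 434 shared ones were 61.9% and 9.34% of the lists. The 12 lay on 8 chromosomes. In 1 of them, on chromosome 1, both wild-type libraries were listed at 0, and the log2 ratios of the other 11 ran from 1.10 to 2.30 in polysome-bound RNA and from 1.07 to 3.69 in total RNA. Across the 603 loci, that chromosome 1 entry included, the ratios of both fractions were correlated with r = 0.55 (Pearson) and rho = 0.41 (Spearman). Across the 16201 shorter loci these were 0.40 and 0.38. Both are descriptions across loci, which are not replicates. The comparisons in polysome-bound and in total RNA share no library, but tissue common to both fractions of a genotype would enter both. No long locus was at least 2-fold higher in rea1 in one fraction and at least 2-fold lower in the other, and only 22 of all 17682 tested loci (0.124%) were.

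Within each genotype, polysome-bound RNA was then set against total RNA. This ratio compares 2 libraries and does not give how much of a transcript sits on polysomes. In rea1 the median log2 ratio of the long loci was -0.49, with quartiles of -0.84 and -0.12, and 478 of 603 were below 0. The median of all tested loci was -0.47, and 13626 of all 17682 were below 0. In rea1 10 long loci (1.66%) were higher on polysomes by 2-fold or more, against 2.91% of all tested loci, and 100 (16.6%) were at least 2-fold lower, against 20.3%. Scaled by the median of ratios the counts were 26 higher and 23 lower (4.31% and 3.81%, against 7.19% and 7.73% of all tested loci).

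In wild type, as deposited, the long loci were closer to equal in both fractions than in rea1, and this order turned under the other scalings. By the median of ratios the medians were 0.0065 in rea1 and -0.049 in wild type, by the trimmed mean 0.0051 and -0.061, and by equal sums without the top 50 loci -0.040 and -0.16. As deposited the median log2 ratio was -0.14, with quartiles of -0.42 and 0.18, against a median of -0.06 for all tested loci. Higher on polysomes by 2-fold or more were 18 long loci (2.99%), against 4.51% of all tested loci, and 23 (3.81%) were at least 2-fold lower, against 6.97%. Scaled by the median of ratios these counts were 20 and 17 (3.32% and 2.82%, against 5.75% and 6.41% of all tested loci). At least 2-fold lower in both genotypes were 18 long loci, which is 18.0% of the rea1 list and 78.3% of the wild-type list, against 24.4% and 70.9% over all tested loci. The 6 that were at least 2-fold higher in both were 60.0% of the rea1 list and 33.3% of the wild-type list, against 48.5% and 31.4% over all tested loci. Those 6 include the entries at 145842210 to 145864964 of chromosome 9 and 44776398 to 44806553 of chromosome 4. The first was listed at 0 in both total libraries, the other in wild-type total RNA alone.

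Since both genotypes gave a polysome-to-total ratio, this contrast could be tested with the genotypes as its 2 samples, in a limma fit over all 17682 loci with genotype as a block. At a Benjamini-Hochberg adjusted p under 0.05, 9 long loci (1.49%) were higher in polysome-bound RNA, against 1.88% of all tested loci, and 27 (4.48%) were lower, against 7.40%. An unadjusted p under 0.05 was reached by 125 of the 603 (20.7%), against 23.0% of all tested loci. The fit had 1 residual degree of freedom, took its spread mostly from other loci, and counts a genotype difference in the ratio as error. After median-of-ratios scaling it called 14 long loci higher and 8 lower. Shares of all tested loci called by limma were not counted under the alternatives. Called in the same direction in every alternative run were 4 of the 9 higher and 7 of the 27 lower loci. Those 4 include the entries at 145842210 to 145864964 of chromosome 9 and 44776398 to 44806553 of chromosome 4. The chromosome 9 entry was listed at 0 in both total libraries and the chromosome 4 entry in wild-type total RNA alone, as described below. No limma run left out loci listed at 0.

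The long locus with the smallest adjusted p lay at 108309686 to 108416833 of chromosome 7 and was 107148 bp long. It had 110.0 FPKM in rea1 and 64.3 FPKM in wild-type polysomes, and 25.0 FPKM in rea1 and 7.24 FPKM in wild-type total RNA. It was therefore higher on polysomes in both genotypes, by a log2 ratio of 2.10 in rea1 and 2.99 in wild type, the highest of the ranked members in each. The limma estimate was 2.54 ± 0.44, where ± is the SE from this locus alone, before spread was borrowed from other loci. The Benjamini-Hochberg adjusted p of 5.28e-05 rests mostly on the borrowed spread and not on that SE. In the 6 alternatives its adjusted p ran from 5.11e-06 to 0.00465.

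Other named loci were higher on polysomes in both genotypes by smaller ratios. The locus at 188405261 to 188432714 of chromosome 2 had 10.8 FPKM in polysome-bound and 2.22 FPKM in total RNA of rea1, against 6.87 and 4.34 FPKM in wild type. The locus at 86223079 to 86259405 of chromosome 5 had 12.6 FPKM in polysome-bound and 6.95 FPKM in total RNA of rea1, against 9.47 and 2.96 FPKM in wild type. The first ranked high in rea1 and the other in wild type, with log2 ratios of 1.87 and 1.40 there.

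At the low end, the locus at 214676254 to 214699598 of chromosome 5 had 2.15 FPKM in polysome-bound and 13.9 FPKM in total RNA of rea1, and 1.54 and 5.33 FPKM in wild type. Its log2 ratios were -2.24 in rea1 and -1.32 in wild type. The limma estimate was -1.78 ± 0.46 (SE from this locus alone). Its adjusted p in limma, 0.00147, rests mostly on the borrowed spread. The locus at 159346429 to 159371692 of chromosome 6 had 22.9 FPKM in polysome-bound and 86.8 FPKM in total RNA of rea1, and 21.2 and 42.9 FPKM in wild type. Its polysome-bound levels were thus alike in both genotypes while its total RNA was higher in rea1. Its adjusted p in limma was 0.0122 and ran from 0.00648 to 0.0607 in the alternatives, so the call was lost in 1 of them.

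In wild type alone, the lowest polysome-to-total ratios among the ranked members were on chromosome 1. The locus at 236148441 to 236187902 had 18.2 FPKM in polysome-bound and 73.5 FPKM in total RNA of wild type (log2 ratio -1.96), and 21.6 and 32.0 FPKM in rea1 (-0.55). The locus at 234851248 to 234877384 had 2.14 FPKM in polysome-bound and 9.51 FPKM in total RNA of wild type (-1.74), and 5.81 and 9.96 FPKM in rea1 (-0.69). In both loci rea1 was nearer to equality between the fractions.

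**Figure D3:**
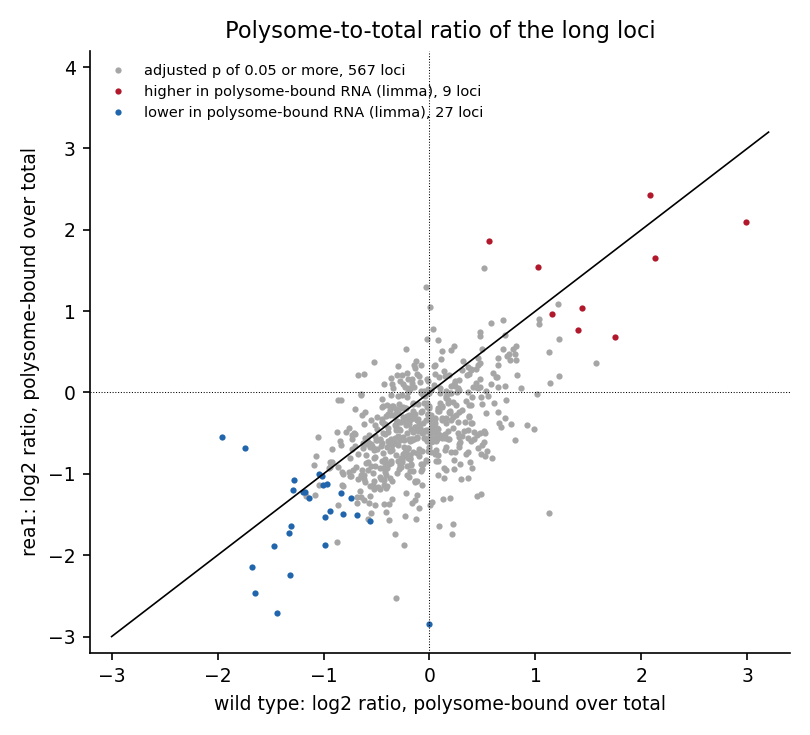
Log2 ratio of polysome-bound over total RNA of the 603 long loci in rea1 (y axis) against wild type (x axis), with the line of equality. Red and blue mark the 9 loci called higher and the 27 called lower by limma over both genotypes. The ratio is lower in rea1 than in wild type for 465 of the 603 loci as deposited, against 13350 of all 17682 tested loci.

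Lastly, the polysome-to-total ratio of rea1 was divided by that of wild type. The median of this change over the long loci was -0.34 (log2), against -0.37 for all tested loci. It was at least 2-fold higher in rea1 for 6 long loci (0.995%), against 2.05% of all tested loci, and at least 2-fold lower for 59 (9.78%), against 15.5%. Scaled by the median of ratios 16 were higher and 14 lower (2.65% and 2.32%, against 5.02% and 6.35% of all tested loci). The median was then 0.07, so the direction of the median depended on the scaling. The highest under the naming rule were the chromosome 1 locus at 236148441 to 236187902 (1.41) and the chromosome 2 locus at 109260299 to 109311620 (1.33), both with less total RNA in rea1.

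The lowest changes belonged to loci whose total RNA was higher in rea1. The locus at 164380304 to 164401827 of chromosome 5 had 5.43 FPKM in polysome-bound and 19.1 FPKM in total RNA of rea1, against 4.23 and 3.92 FPKM in wild type, a change of -1.73. The locus at 71108250 to 71142023 of chromosome 1 had 7.06 FPKM in polysome-bound and 18.4 FPKM in total RNA of rea1, against 5.57 and 3.82 FPKM in wild type (-1.71). In both, as deposited, 3 of the libraries lay close together and rea1 total RNA stood above them.

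Length itself went with the ratios only weakly among the long loci. The Spearman rho between length and log2 ratio over the 603 loci was -0.003 and -0.01 for rea1 over wild type in polysome-bound and total RNA. It was 0.03 for polysome-bound over total RNA in each genotype. These are descriptions across loci that share the same libraries. Median log2 ratios of rea1 over wild type in total RNA were 0.63 for the 351 loci of 20 to 30 kb, 0.68 for the 156 of 30 to 50 kb, 0.48 for the 85 of 50 to 100 kb and 0.36 for the 11 of 100 kb or more. In polysome-bound RNA they were 0.28, 0.35, 0.23 and 0.16 in the same order. The loci of 100 kb or more are few and 54.5% of them share coordinates with another entry.

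Set beside shorter loci of the same FPKM range, the long loci had values like those of loci of 5 to 20 kb, and the widest spread was found in loci under 2 kb. In polysome-bound RNA, the share at least 2-fold apart between rea1 and wild type in either direction was 2.28%, 5.13%, 2.35% and 0% in the long classes of 20 to 30, 30 to 50, 50 to 100 and 100 kb or more. It was 10.7% under 2 kb, 3.79% at 2 to 5 kb, 3.32% at 5 to 10 kb and 2.67% at 10 to 20 kb. In total RNA the quartiles of the log2 ratio were 0.64, 0.66, 0.72 and 0.44 apart in the long classes, against 1.04, 0.77, 0.69 and 0.63 in the shorter ones from under 2 kb upwards. No test was made between length classes, since loci are not replicates.

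For polysome-bound over total RNA in wild type, the medians were -0.17, -0.07, -0.08 and -0.11 in the long classes, and -0.06, -0.03, -0.10 and -0.16 in the shorter ones. In rea1 they were -0.51, -0.49, -0.40 and -0.39 in the long classes, and -0.51, -0.44, -0.46 and -0.51 in the shorter ones. The medians thus showed no step at 20 kb in either genotype. At the limit itself, the shortest members, both 20012 bp long, were unremarkable in level: the one at 19624442 to 19644453 of chromosome 4 lay between 8.75 and 10.7 FPKM in all 4 libraries. The longest locus just outside, at 14953389 to 14973375 of chromosome 4 and 19987 bp long, lay between 13.6 and 21.7 FPKM.

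**Figure D4:**
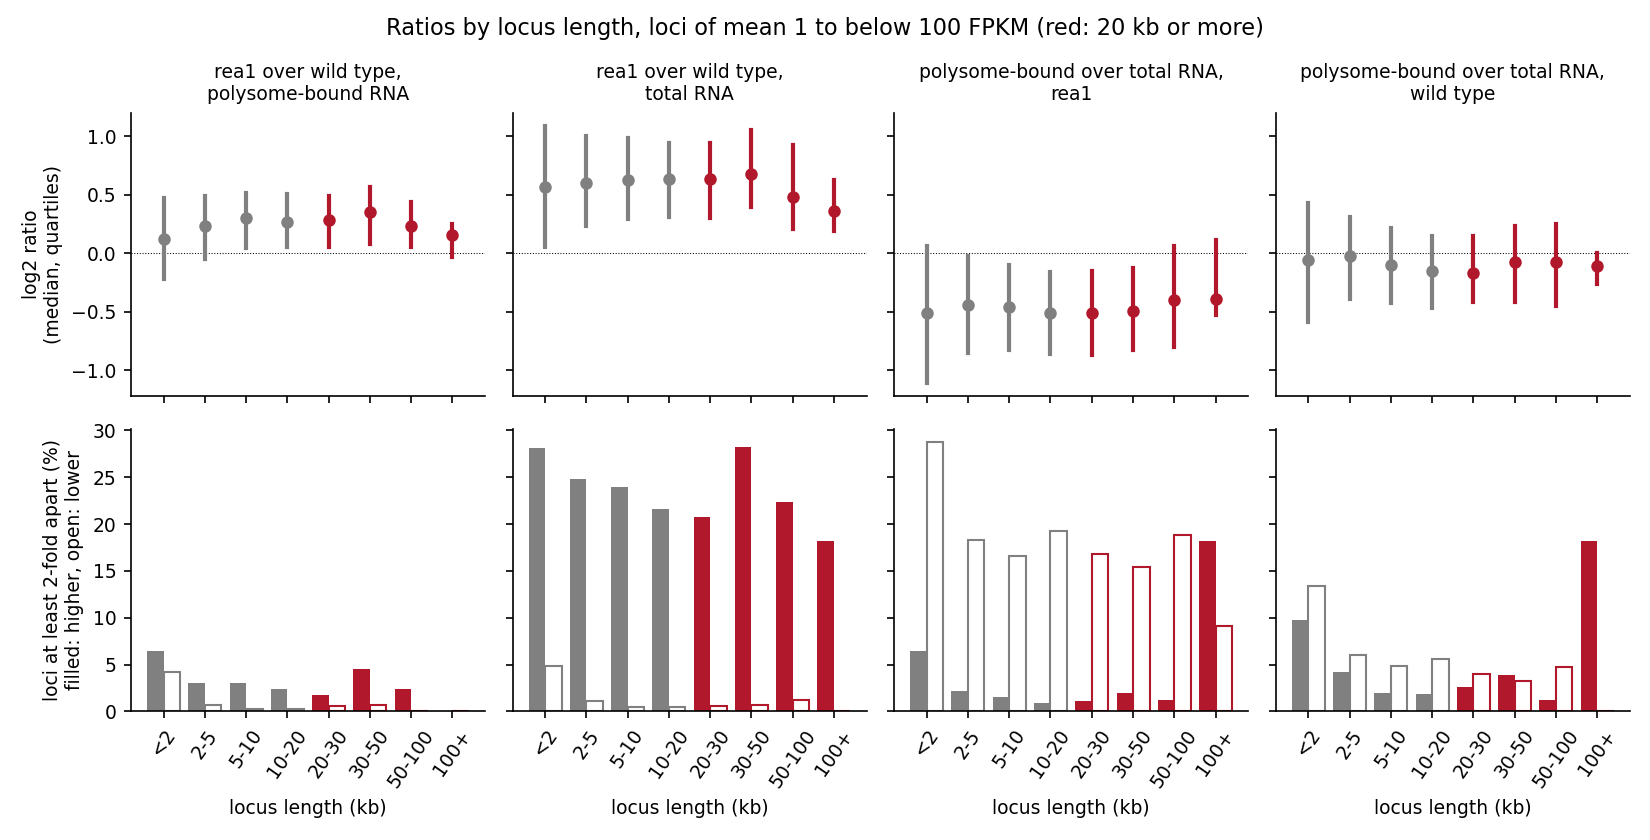
Log2 ratios by locus length for nuclear loci with a mean of 1 to below 100 FPKM, shorter classes in grey and loci of 20 kb or more in red. Points are medians and lines quartiles over loci (top), and bars give the percentage of loci at least 2-fold higher (filled) or lower (open); the class of 100 kb or more holds 11 loci.

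On the log2(FPKM + 1) scale, abundance went with the polysome-bound genotype ratio more than length did. Ratios of low loci come out too small on that scale, and the values by abundance were not recomputed with another pseudocount. The Spearman rho between mean FPKM and log2 ratio over the 603 loci was 0.26 in polysome-bound and 0.08 in total RNA, as a description across loci. By mean FPKM, the median polysome-bound log2 ratio of rea1 to wild type was 0.16 for the 132 long loci at 1 to 3 FPKM, 0.28 for the 227 at 3 to 10, 0.39 for the 190 at 10 to 30 and 0.40 for the 54 at 30 to below 100. Shorter loci of the same classes had medians of 0.08, 0.22, 0.34 and 0.40. In total RNA the medians were 0.57, 0.64, 0.59 and 0.84 for the long loci, against 0.48, 0.60, 0.67 and 0.80 for the shorter ones. In each class and both fractions the quartiles of the long loci were closer together than those of the shorter loci, for example 0.56 against 0.84 in total RNA at 30 to below 100 FPKM. The shorter loci include those under 2 kb, which had the widest spread.

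The 3 most abundant members stayed within about 2-fold between the genotypes. The entry at 32313238 to 32333363 of chromosome 1 had 102.6 FPKM in rea1 and 79.9 FPKM in wild-type polysomes, and 138.8 FPKM in rea1 and 68.4 in wild-type total RNA. The locus at 2991132 to 3047453 of chromosome 8 had 102.6 and 72.0 FPKM in rea1 and wild-type polysome-bound RNA, and 102.9 and 67.3 FPKM in rea1 and wild-type total RNA. The locus at 71173354 to 71194892 of chromosome 7 had 78.7 FPKM in rea1 and 87.6 FPKM in wild-type polysomes, and 77.9 FPKM in rea1 and 92.9 in wild-type total RNA. The first 2 were higher in rea1 in both fractions and the third was slightly lower. The chromosome 1 entry shares its coordinates with another member, which was slightly lower in rea1 on polysomes. That member had 62.3 and 68.1 FPKM in rea1 and wild-type polysomes, and 122.3 and 75.9 FPKM in rea1 and wild-type total RNA. Just above the limit of 100 FPKM, a locus at 122980592 to 123021138 of chromosome 6 had a mean of 102.4 FPKM and lay between 77.3 and 130.3 FPKM. At the lower limit, the member with the smallest mean lay at 19063721 to 19101243 of chromosome 7, between 0.512 and 1.29 FPKM. Another member, with a mean of 56.9 FPKM, stands at the same coordinates.

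The longest members varied in how far the libraries were apart. The longest, at 227634031 to 227794351 of chromosome 2 and 160321 bp long, had 6.67 FPKM in rea1 and 5.30 FPKM in wild-type polysomes, and 9.64 FPKM in rea1 and 5.78 in wild-type total RNA. The locus of 150713 bp at 165830871 to 165981583 of chromosome 1 had 1.40 and 1.15 FPKM in rea1 and wild-type polysome-bound RNA, and 1.07 and 2.43 FPKM in rea1 and wild-type total RNA. The locus of 136767 bp at 105681405 to 105818171 of chromosome 5 was at 22.8 FPKM in rea1 and 22.6 FPKM in wild-type polysome-bound RNA, with 34.5 FPKM in rea1 and 22.3 FPKM in wild-type total RNA. As deposited, its values were alike in all libraries but rea1 total RNA. Its log2 ratio of rea1 to wild type in total RNA, 0.61, was close to the median of all tested loci, 0.62. The locus of 143463 bp at 168738873 to 168882335 of chromosome 3 had 0.0952 FPKM in rea1 and 0.244 FPKM in wild-type polysome-bound RNA, and 5.31 FPKM in rea1 and 0.548 FPKM in wild-type total RNA. That locus was above 1 FPKM in rea1 total RNA alone, and its mean of at least 1 FPKM rests on that library. Its log2 ratio of rea1 over wild type was 2.03 in total RNA, and its polysome-to-total ratio was -2.53 in rea1 and -0.31 in wild type, a change of -2.21. That change lies beyond those of the loci named as lowest, which needed a mean of at least 5 FPKM.

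Members lay on all 10 chromosomes and on no scaffold. They made up between 2.54% of the tested loci on chromosome 6 and 4.43% on chromosome 2. The median log2 ratio of rea1 over wild type ran from 0.22 on chromosome 8 to 0.34 on chromosome 3 in polysome-bound RNA, and from 0.44 on chromosome 10 to 0.74 on chromosomes 4 and 7 in total RNA. The direction was thus the same on every chromosome as deposited. Long loci had fewer neighbours than shorter ones: a median of 13 other distinct loci were centred within 500 kb of a long locus (quartiles 7 and 21), against 18 for the shorter loci (quartiles 12 and 25).

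Several entries could stand for 1 stretch. Of the 603 members, 95 (15.8%) shared their coordinates with at least 1 other entry, against 872 (5.38%) of the 16201 shorter loci. The share was 10.8% among members of 20 to 30 kb and 14.1% among loci of 10 to 20 kb, so it was not particular to loci of 20 kb or more. Entries with different coordinates never overlapped in the files, so overlapping or interleaved genes would appear only as entries with the same coordinates. The 95 members stood at 62 coordinates that held 137 entries in all: 54 held 2, 5 held 3, 1 held 4 and 2 held 5. At 36 of the 62 the most abundant entry had a mean at least 10 times that of the least abundant. Where 2 or more members stood at the same coordinates, in 27 cases, all of them had the same direction of rea1 against wild type in total RNA in 20, and their log2 ratios were 0.47 apart in the median. Which part of a shared stretch belongs to which entry cannot be read from the files, and where genes overlap, their reads could have been divided between entries.

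The stretch at 33309450 to 33441145 of chromosome 5, 131696 bp long, held 3 members with different patterns. The first had 22.4 and 23.7 FPKM in rea1 and wild-type polysome-bound RNA, and 31.6 and 24.4 FPKM in rea1 and wild-type total RNA. Another had 19.1 and 18.5 FPKM in rea1 and wild-type polysome-bound RNA, and 19.1 and 18.8 FPKM in rea1 and wild-type total RNA. The third had 2.51 and 2.03 FPKM in rea1 and wild-type polysome-bound RNA, and 0.646 and 0.309 FPKM in rea1 and wild-type total RNA. The entry between 18.5 and 19.1 FPKM was nearly equal in all libraries, whereas the third was higher on polysomes in both genotypes.

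Entries of 1 stretch also differed in their ratios. At 210248720 to 210274850 of chromosome 2, 1 entry had 6.14 FPKM in rea1 and 6.48 FPKM in wild-type polysomes, and 2.47 FPKM in rea1 and 1.77 in wild-type total RNA. The other had 14.3 and 14.2 FPKM in rea1 and wild-type polysome-bound RNA, and 6.41 and 14.1 FPKM in rea1 and wild-type total RNA. Both were higher in polysome-bound than in total RNA of rea1, and only the first was so by 2-fold in wild type. The largest gap between rea1-to-wild-type ratios of 2 members at the same coordinates was 2.28 (log2) in total RNA. It belonged to the pair at 201924320 to 201966354 of chromosome 4, where 1 entry had 92.5 FPKM in rea1 and 7.06 FPKM in wild-type total RNA and the other 20.6 and 8.06 FPKM. Both entries of that pair were higher in rea1. These entries with shared coordinates were chosen after their values were seen.

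**Figure D5:**
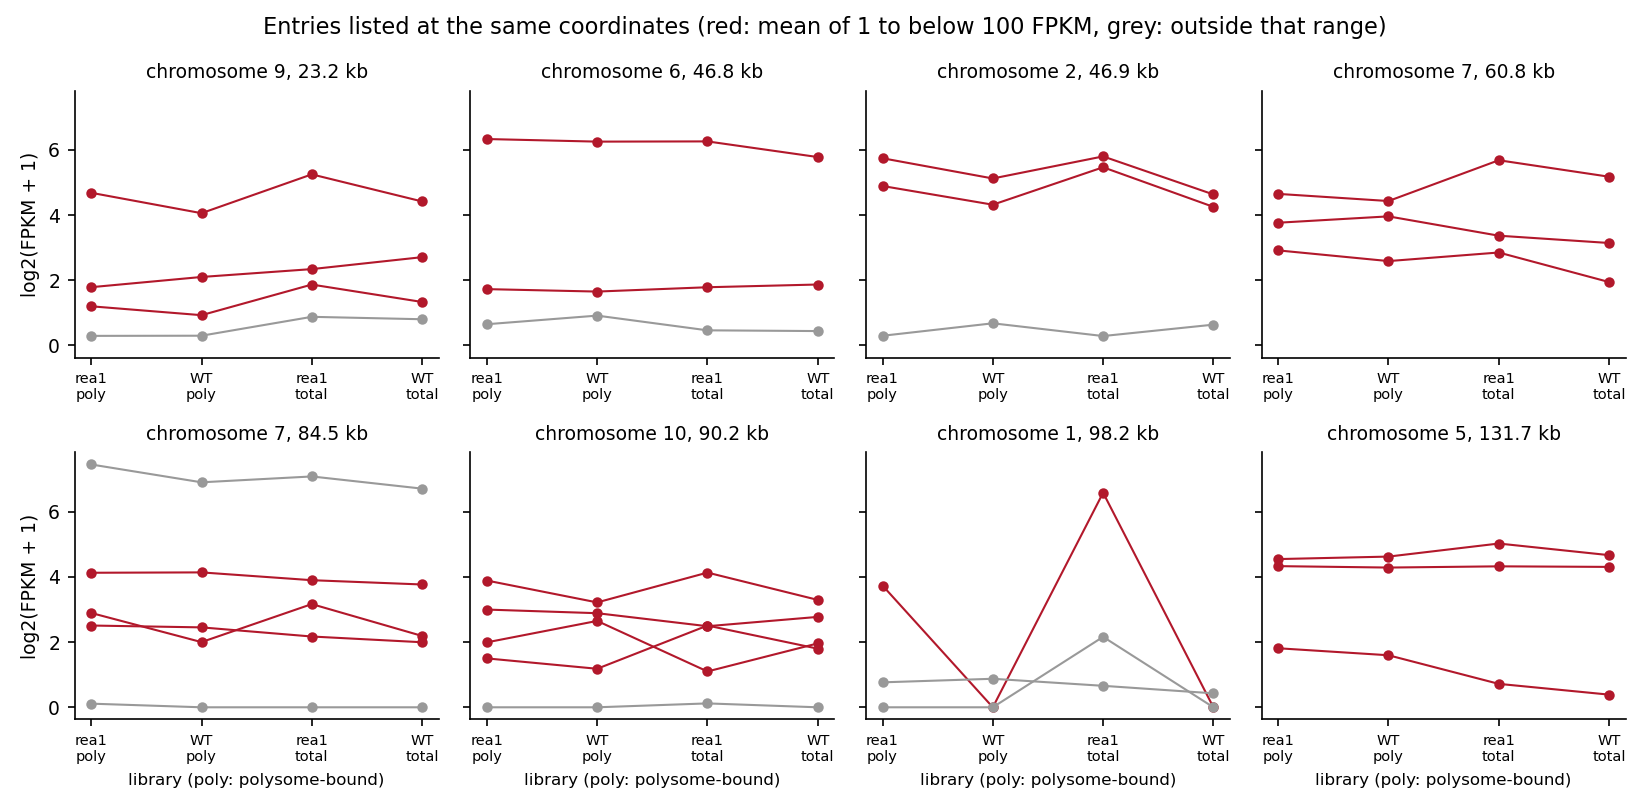
Level, log2(FPKM + 1), of each entry in the 4 libraries at the 8 coordinates that hold 3 or more entries and at least 1 member, 1 line per entry. Red entries have a mean of 1 to below 100 FPKM and grey ones lie outside that range; lines join the values of an entry and do not stand for a time course, and the tall peak in the panel for chromosome 1 is the entry with 95.0 FPKM in rea1 total RNA and 0 listed in wild type.

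Only 3 members were listed at 0 in any library, and since a listed 0 may be an estimate that failed, no ratio is given for them. At 204959111 to 205057301 of chromosome 1, a stretch of 98191 bp with 3 entries, 1 entry had 12.3 FPKM in rea1 polysome-bound RNA and 95.0 FPKM in rea1 total RNA and was listed at 0 in both wild-type libraries. A second entry there had 3.47 FPKM in rea1 total RNA and was listed at 0 elsewhere. The remaining entry lay between 0.346 and 0.834 FPKM in all libraries. The stretch thus held 2 entries above 0 in rea1 libraries alone beside 1 at a low level everywhere. The entry at 95.0 FPKM is 1 of the 27 loci that limma called lower on polysomes (Benjamini-Hochberg adjusted p 0.0446), although it was listed at 0 in both fractions of wild type. At 145842210 to 145864964 of chromosome 9, an entry had 4.40 FPKM in rea1 and 3.22 FPKM in wild-type polysomes and was listed at 0 in both total libraries. At 44776398 to 44806553 of chromosome 4, the locus had 2.79 FPKM in rea1 and 3.39 in wild-type polysome-bound RNA, with 0.208 FPKM in rea1 total RNA and 0 listed in wild-type total RNA. As listed, the chromosome 9 and chromosome 4 entries were seen almost only on polysomes in both genotypes, with the limit on listed zeros given above. Limma called these entries higher on polysomes. The chromosome 9 entry shares its coordinates with another entry, which went the other way. That entry had 0.175 and 0.176 FPKM in rea1 and wild-type polysome-bound RNA, and 0.463 and 0.474 FPKM in rea1 and wild-type total RNA.

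As deposited, 385 of the 603 long loci (63.8%) were under 2-fold apart, on the FPKM + 1 scale, in each of the 4 comparisons of 2 libraries made here, against 57.3% of the 16201 shorter loci and 56.3% of all tested loci. The shorter and the tested loci include those under 2 kb, which had the widest spread, and this share was not counted by length. Among members above 0 everywhere, the highest FPKM of the 4 libraries was 2.26 times the lowest in the median, against 2.37 times among shorter loci above 0 everywhere, so most members spanned over 2-fold in FPKM.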

How the data were processed

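RNA of rea1 and wild-type endosperm was measured in 4 libraries, 1 per genotype and RNA fraction, grouped by the sample titles. The authors deposited FPKM values, 1 file per library, per the file headers. Bowtie 0.12.2 and B73 RefGen_v3 are named in the submitters' processing notes; the program that gave FPKM, its denominator, the annotation and how triplicates were combined were not found: the sources used here do not give them. Read totals are not in the files. Among loci under 0.1 FPKM, the commonest step of total over polysome-bound values was 1.41 in rea1 and 1.23 in wild type, but only 44.6% and 48.8% lay within 0.1 (log2) of that step, so no whole reads were recovered and no intervals are given.

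Starts in the files were taken as 0-based: 48 of 73 organelle loci then had a length that is a multiple of 3, and 16 otherwise. Ratios were taken on log2(FPKM + 1), counted at 2-fold, and set beside the 17682 loci whose mean reached 1 FPKM. limma 3.58.1 in R 4.3.3 (trended eBayes, genotype as a block) tested polysome-bound against total RNA, adjusted by Benjamini-Hochberg over those loci. Python 3.11.15 was used with scipy 1.17.1, pandas 2.3.3, numpy 2.4.6 and, for plots, matplotlib 3.10.9. The calculations were tested on simulated data. No test was made between genotypes. The members and the ways of listing them were chosen with earlier results of these data known. Named loci were the 2 highest and 2 lowest for each comparison among the members above 0 in all libraries, with a mean of at least 5 FPKM and unshared coordinates, plus the 5 longest, the 3 most abundant and those at the limits; others are said to be chosen after their values were seen. The gene table at hand belongs to another build; no gene names and no sequences are given. Alternatives were other pseudocounts, filters, length limits and scalings, and leaving out shared coordinates or loci listed at 0.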

Additional observations from a re-analysis of the deposited data

Results flagged for a closer look

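As deposited, 1 of the 603 members (0.166%) went in opposite directions by at least 2-fold in the 2 genotypes, against 80 of all 17682 tested loci (0.452%), and the difference between them was not tested, with 1 library in each group. It was an entry at 201924320 to 201966354 of chromosome 4, 42035 bp long, with 32.4 FPKM in polysome-bound and 92.5 FPKM in total RNA of rea1, against 16.6 and 7.06 FPKM in wild type. Its log2 ratio of polysome-bound over total RNA was -1.49 in rea1 and 1.12 in wild type. By the median of ratios it was -0.92 in rea1 and 1.23 in wild type, and no member was 2-fold apart in opposite directions under any of the 3 other scalings. It shares its coordinates with another entry, which had 16.6 FPKM in polysome-bound and 20.6 FPKM in total RNA of rea1, against 5.80 and 8.06 FPKM in wild type.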

How the results depend on the processing

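No paired analysis was possible because the labels give no replicate numbers to pair by; the limma fit pairs the 2 fractions by genotype alone. Of the 192 values recomputed with other settings, 119 stayed within their limits, 66 moved beyond them and 7 turned direction. The cause was not tested. The limits were 1.5 times for shares and counts and, for medians, an interval taken across loci, which are not replicates. Leaving out members that overlap another listed locus removed none, so those values repeat the main ones and count among the 119. The scalings were the median of ratios, the trimmed mean and equal sums without the 50 most abundant loci, in that order below. The long loci's median log2 ratio of rea1 to wild type on polysomes was 0.077, 0.10 and, turned, -0.018; 1.66% were higher by the first and 1.16% higher and 1.16% lower by the last. In total RNA the medians were 0.0057, 0.026 and, turned, -0.14, with 2.99%, 2.99% and 2.65% higher and 3.65%, 3.15% and 6.80% lower. For polysome-bound over total RNA in rea1 the medians were 0.0065 and 0.0051 (both turned) and -0.040, with 4.31%, 4.31% and 4.15% higher and 3.81%, 3.48% and 4.48% lower. In wild type the medians were -0.049 and -0.061 by the first 2 scalings. The change of the ratio turned to 0.070, 0.079 and 0.13, with 2.65%, 2.65% and 3.65% higher and 2.32%, 1.82% and 1.99% lower. limma called 14 loci higher by the median of ratios and 14 by equal sums, and 8, 7 and 17 lower by the 3 scalings. With a pseudocount of 5, the medians in the order polysome-bound, total, rea1 fractions, wild-type fractions and change were 0.17, 0.41, -0.30, -0.083 and -0.22. The shares higher were then 1.16%, 6.97%, 0.498%, 0.332% and 0.166%. The shares lower were 0.166% in polysome-bound RNA, 4.64% and 0.498% for the rea1 and wild-type fractions and 2.16% for the change, and limma called 4 higher and 9 lower. With a pseudocount of 0.1, the medians were 0.35, 0.73 and -0.56 for polysome-bound RNA, total RNA and the rea1 fractions; 4.98% were higher and 0.829% lower in polysome-bound RNA, 1.33% lower in total RNA, 4.81% higher and 7.30% lower in the wild-type fractions, and 1.66% higher for the change. Without a filter on low values (821 loci), the medians were 0.20, 0.48, -0.37, -0.085 and -0.27 in the order above. With a mean of at least 5 FPKM (374 loci), the median in polysome-bound RNA was 0.34 and 1.07% were lower in total RNA. From 30000 bp upwards (252 loci), the wild-type fractions had a median of -0.078. Under every scaling run, the long loci had smaller shares at least 2-fold apart than all tested loci, both directions added together. All tested loci include those under 2 kb, which had the widest spread. As deposited, the share in total RNA was 22.2% for loci of 10 to 20 kb in the same FPKM range. It was 21.4%, 28.8%, 23.5% and 18.2% in the long classes from 20 kb upwards. Depth is not given, and with 1 library per group no replicate error can be given for these values.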
